A study of Mus musculus with 9 samples.

Results

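The killer lectin-like receptors and the natural cytotoxicity receptor Ncr1 were examined in RNA of bone marrow T-cells. Members were all probes whose gene symbol begins with Klr, plus Ncr1, and these were 7 of the 785 probes counted: Klrk1, Klrd1, Klrc1, Klrg1, Klrb1a, Klrb1 and Ncr1. RNA came from 9 female wild-type C57BL/6 mice, 6 to 8 weeks old when the leukemia cells were transferred, and the marrow T-cells were taken at day 7 with a pan-T-cell kit. Their RNA was counted with the nCounter Immune Exhaustion panel, a set of barcoded probes for named transcripts that are counted without amplification. There were 3 mice without leukemia, which received no treatment, 3 vehicle treated mice with leukemia and 3 rIL-12 treated mice with leukemia. The leukemia cells, a B-ALL line that carries BCR-ABL1 and luciferase and is Arf-/-, were given to unirradiated recipients, and treatment with rIL-12, in doses of 1 µg, began on day 3. The labels list the vehicle treated mice as given no treatment, and what the vehicle was in these mice is not given in the sources used here. All leukemia came from a single cell line.

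These receptors let natural killer (NK) cells and antigen-experienced CD8+ T-cells weigh activating against inhibitory signals from a target cell. NKG2D, encoded by Klrk1, is an activating receptor for stress-induced ligands and signals through the adaptors DAP10 and DAP12. CD94, encoded by Klrd1, has no signaling tail of its own and pairs with an NKG2 chain. With NKG2A, encoded by Klrc1, it forms an inhibitory receptor for the MHC class Ib molecule Qa-1. KLRG1 is an inhibitory receptor for cadherins found on effector T-cells and mature NK cells. Klrb1a and Klrb1 encode NKR-P1 receptors, of which the former was grouped here with the activating and the latter with the inhibitory receptors. Both of these assignments are less certain than the others. Ncr1 encodes NKp46, an activating receptor that marks NK cells and some innate lymphoid cells.

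Of the 7 receptors, only Klrk1 and Klrd1 passed the test in a comparison, and in opposite directions. In rIL-12 treated mice with leukemia Klrk1 was 2.69-fold higher than in mice without leukemia and 2.59-fold higher than in vehicle treated mice with leukemia. Both calls of Klrk1 were lost without at least 1 mouse. Without rIL-12 treated mouse 2 its log2 changes were 0.83 and 0.77. Klrd1 was 3.56-fold lower in rIL-12 treated mice than in mice without leukemia, and its ratio to the T-cell gene Cd3e overlapped between all groups. The other 5 receptors passed the test in no comparison, and 3 of them were counted near or under a viral probe taken as background.

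The genes of CD94, NKG2D and NKG2A lie in 1 region of chromosome 6. Among receptor genes with a probe, the next after Klrd1 (chr6:129588092-129598775, GRCm38.p6) was Klrk1 (chr6:129610323-129623903), 11547 bases on. The next after Klrk1 was Klrc1 (chr6:129666015-129682852), 42111 bases on. Genes without a probe that may lie between them were not examined. Klrb1a, Klrb1 and Klrg1 are also on chromosome 6, and Ncr1 is on chromosome 7. Each gene had a single probe, named by its transcript and a position in it, so no transcript variant could be told apart. Klrc1 has close relatives in Klrc2 and Klrc3, and Klrb1a in Klrb1c, none of which was among the named probes, and counts of Klrc1 and Klrb1a are uncertain to the extent that such copies bind the same probe.

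Since Klrk1 rose and Klrc1, the next receptor gene with a probe, passed no test, the 250 bases before a transcript start of each are shown. They were taken from RefSeq (GRCm38.p6) and are written 5′ to 3′ on the minus strand, on which both genes lie, with capitals for a match to TGTGGT, the core bound by Runx factors, or to its reverse complement. The start is the single one that the RefSeq promoter table gives for each gene, for a transcript it does not name. It lies 39 bases inside the outer end of the Klrk1 gene given above and 3879 bases inside that of Klrc1, so that the Klrc1 window lies within the gene. The Klrk1 window is chr6:129623865-129624114 and the Klrc1 window is chr6:129678974-129679223.
Klrk1: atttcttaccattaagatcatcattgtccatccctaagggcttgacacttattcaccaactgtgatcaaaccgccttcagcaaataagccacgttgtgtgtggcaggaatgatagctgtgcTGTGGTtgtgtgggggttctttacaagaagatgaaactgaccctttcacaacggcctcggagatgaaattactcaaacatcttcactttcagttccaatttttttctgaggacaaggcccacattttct
Klrc1: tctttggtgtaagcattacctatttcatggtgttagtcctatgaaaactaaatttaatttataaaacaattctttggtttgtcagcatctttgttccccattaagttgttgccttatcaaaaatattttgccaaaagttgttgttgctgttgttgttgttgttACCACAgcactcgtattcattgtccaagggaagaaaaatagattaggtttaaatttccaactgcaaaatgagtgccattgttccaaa
The match began 129 bases before this start in Klrk1, as TGTGGT, and 87 bases before it in Klrc1, on the opposite strand. On either strand, TGTGGT was present in 4 of the 5 receptor genes with a window (Klrk1, Klrc1, Klrb1a and Ncr1, not Klrb1) and in 14.0% of all 32851 windows. The STAT motif TTCNNNGAA, its form with 4 bases between TTC and GAA, the T-box motif GGTGTGA and the AP-1 motif TGANTCA were in none of the 5, and in 7.02%, 5.85%, 3.33% and 6.75% of all windows. These are descriptions of letters in a window. TGTGGT was thus present both before the start given for Klrk1, which rose, and before that given for Klrc1, which passed no test.

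Total counts per mouse ranged from 257613 in vehicle treated mouse 3 to 711748 in rIL-12 treated mouse 2. As a measure of background, the panel's probe for a transcript of the virus LCMV, which is no part of the design, gave 53 to 114 counts. Its mean was 91 counts, and 251 other probes had a mean at or below that. Background below means the level of this single viral probe, which is not a floor of detection. Klrk1, Klrd1, Klrc1 and Klrg1 exceeded this probe in 9 of 9 mice. Klrb1a exceeded it in 1 mouse, and Klrb1 and Ncr1 in 0 mice. Klrd1 reached 15.04 times the viral probe and Klrk1 12.6 times, whereas Klrc1 stayed between 1.54 and 2.51 times and Klrg1 between 1.23 and 2.17 times. In mean count Klrd1 stood above 65.9% of all probes, Klrk1 above 65.1%, Klrc1 above 48.9%, Klrg1 above 43.3%, Klrb1a above 28.5%, Klrb1 above 14.5% and Ncr1 above 11.3%. Ncr1, the receptor in the set that most strictly marks NK cells, thus did not exceed the viral probe in any mouse. Its absence is not shown by this.

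**Figure D1:**
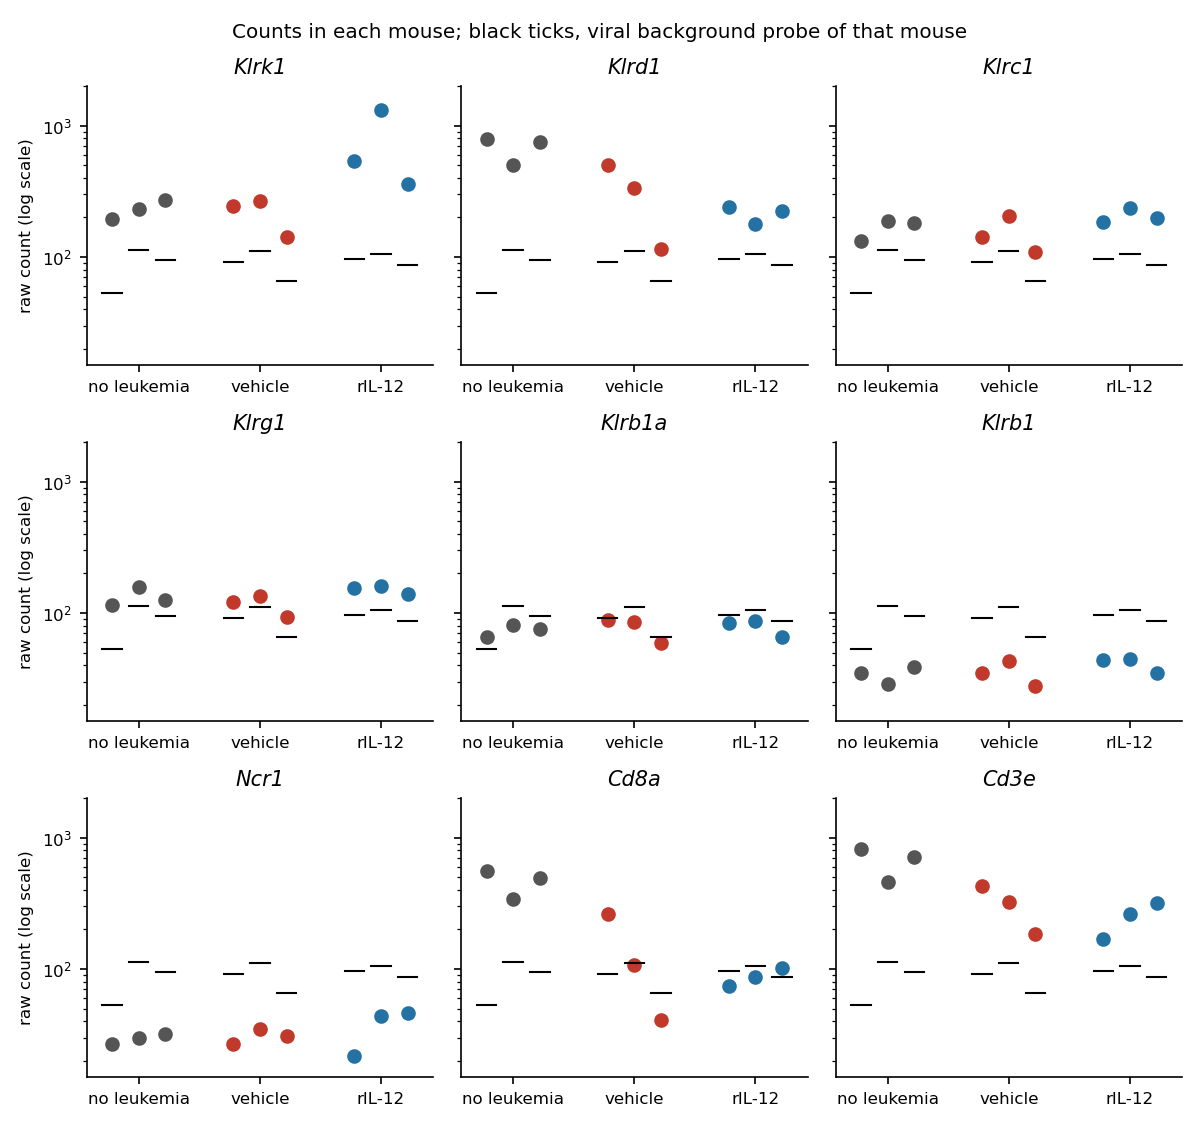
Raw counts (log scale) of the 7 receptor probes and of Cd8a and Cd3e in each of 9 mice, in 3 groups of 3; each point is a mouse and each black tick the viral background probe of the same mouse. The rIL-12 treated mice stand highest for Klrk1, the mice without leukemia stand highest for Klrd1, Cd8a and Cd3e, and Klrb1 and Ncr1 lie under the background ticks in all 9 mice.

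The T-cell label was checked with marker genes. Cd3e, a chain of the T-cell receptor complex, exceeded the viral probe in 9 of 9 mice, with 168 to 817 counts. Cd8a, a chain of the CD8 coreceptor, exceeded it in 5 of 9 mice. Against mice without leukemia Cd8a fell by 1.68 on the log2 scale in vehicle treated mice (SE 0.39, edgeR quasi-likelihood test, Benjamini-Hochberg adjusted p = 0.0399) and by 2.55 in rIL-12 treated mice (SE 0.41, adjusted p = 0.000954). The vehicle call for Cd8a was lost in 4 of the 9 omissions of a mouse (numbers 1 and 3 of the group without leukemia, numbers 2 and 3 of the vehicle group), with log2 changes of -2.45 to -1.37, and with housekeeping scaling (-1.61, edgeR adjusted p = 0.0944). As Cd8a did not exceed the viral probe in 4 of the 6 mice with leukemia, the sizes of its changes are limited by background. With counts under the viral probe raised to it they were -1.62 and -2.39. Cd3e fell by 1.56 in rIL-12 treated mice (SE 0.29, edgeR adjusted p = 0.00289). Markers of other cells were also present. The 5 measured of 14 myeloid markers summed to 1879 to 1933 normalized counts without leukemia, 2014 to 2429 with vehicle and 1854 to 2687 with rIL-12, and none of them was at 0. Of these, Cd68 rose in rIL-12 treated mice over mice without leukemia (0.75, edgeR adjusted p = 0.0302) and Itgax, which exceeded the viral probe in 0 mice, fell against vehicle treated mice (-0.65, adjusted p = 0.0462), both named with their values known. Csf1r, the receptor for macrophage colony-stimulating factor, gave a mean of 1325, 1597 and 1389 normalized counts in these groups. The 6 measured of 11 B-cell or B-ALL markers summed to 835 to 934, 901 to 1143 and 714 to 763. The part of other cells in the receptor values was not tested. In such bulk RNA, fewer cells of a type and less RNA per cell cannot be told apart.

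In the activating class, Klrk1 rose with rIL-12. Counts scaled by TMM (normalized counts) were 202, 233 and 258 in mice without leukemia, 242, 244 and 235 in vehicle treated mice, and 456, 1047 and 367 in rIL-12 treated mice. All rIL-12 treated mice were above all other mice, and mouse 2 of this group was more than the other two together. Means were 231 ± 28.0 (SD, n = 3), 240.4 ± 4.86 (SD, n = 3) and 623.5 ± 369 (SD, n = 3). The log2 change was 1.43 over mice without leukemia (SE 0.31, edgeR quasi-likelihood test, Benjamini-Hochberg adjusted p = 0.00673) and 1.37 over vehicle treated mice (SE 0.31, adjusted p = 0.0156). Between vehicle treated mice and mice without leukemia the log2 difference was 0.06 (SE 0.31, edgeR adjusted p = 0.964). The comparisons of rIL-12 treated mice share those mice and are not independent of each other.

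The size and the calls of Klrk1 rested on single mice. Without rIL-12 treated mouse 2 the log2 change was 0.83 over mice without leukemia (edgeR adjusted p = 0.0120) and 0.77 over vehicle treated mice (adjusted p = 0.0559). The call over mice without leukemia was lost without mouse 1 of that group (1.38, edgeR adjusted p = 0.0575). The call over vehicle treated mice was lost without rIL-12 treated mouse 2, as given, without vehicle treated mouse 2 (1.35, edgeR adjusted p = 0.0571) and without vehicle treated mouse 3 (1.36, adjusted p = 0.0665).

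Ncr1 and Klrb1a, the other activating receptors, passed no test. Ncr1 gave 28.2, 29.8 and 30.4 normalized counts without leukemia, 26.8, 31.8 and 50.9 with vehicle, and 18.7, 34.8 and 46.8 with rIL-12. The groups overlapped, and all values were under the viral probe. Klrb1a had means of 73.9 ± 6.01, 87.8 ± 9.44 and 69.2 ± 2.21 (SD, n = 3 each). Its rIL-12 treated mice, at 67.1 to 71.5, lay below the vehicle treated mice, at 78.1 to 96.9, but the log2 difference of -0.33 (SE 0.18) did not pass the edgeR test (adjusted p = 0.210) and lies at background level.

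Klrd1, the partner chain, ran the other way. Normalized counts were 832, 502 and 712 in mice without leukemia, 499, 304 and 189 in vehicle treated mice, and 204, 142 and 229 in rIL-12 treated mice. All mice without leukemia were above all mice with leukemia, with 502 against 499 as the nearest pair, and the groups with leukemia overlapped. Means were 682 ± 167, 331 ± 157 and 191 ± 44.8 (SD, n = 3 each). Klrd1 fell in rIL-12 treated mice against mice without leukemia by 1.83 on the log2 scale (SE 0.31, edgeR quasi-likelihood test, Benjamini-Hochberg adjusted p = 0.00146). The difference between vehicle treated mice and mice without leukemia was -1.03 (SE 0.31, edgeR adjusted p = 0.110), and between rIL-12 and vehicle treated mice it was -0.80 (SE 0.31, adjusted p = 0.0913). Without vehicle treated mouse 1, whose Klrd1 was the highest of that group, the difference from mice without leukemia was -1.45 and passed (edgeR adjusted p = 0.00989). Without rIL-12 treated mouse 3 the difference between the groups with leukemia was -0.95 and passed (edgeR adjusted p = 0.0484).

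No inhibitory receptor passed the test in any comparison. Klrc1 gave 139, 188 and 174 normalized counts without leukemia, 141, 186 and 179 with vehicle, and 158, 188 and 202 with rIL-12. The 3 groups overlapped throughout, and log2 differences were 0.01, 0.13 and 0.12 (SE 0.19 in each comparison). Klrg1 ranged over 119.7 to 157, 121 to 154 and 127.5 to 142, with means of 132 ± 21.5, 133 ± 18.6 and 134 ± 7.76 (SD, n = 3 each). The log2 differences of Klrg1 were 0.01 and 0.02 in the rIL-12 comparisons (SE 0.18 each), and its group means lay within their SDs. The directions of both turned under other scalings. Klrb1 had means of 34.1 ± 4.60, 39.9 ± 5.69 and 36.2 ± 1.07, all under the viral probe.

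In counts of members, 0 of 7 receptors passed between vehicle treated mice and mice without leukemia, where 2.68% of all 785 probes passed. The test was edgeR's quasi-likelihood test, and 1 receptor, Klrd1, had an unadjusted p under 0.05. DESeq2 called 1 receptor there, also Klrd1. Between rIL-12 treated mice and mice without leukemia 2 of 7 passed, 1 higher and 1 lower, against 17.6% of all probes. Between rIL-12 and vehicle treated mice 1 of 7 passed, against 13.8% of all probes. Groups did not overlap for 1, 2 and 2 receptors in these comparisons, beside 22.5%, 35.5% and 30.7% of all probes. By class, 1 of 3 activating receptors, 0 of 3 inhibitory receptors and the single partner chain passed in rIL-12 treated mice against mice without leukemia. Median log2 differences were 0.24, 0.16 and -0.09 for the 3 activating receptors and 0.01, 0.08 and 0.02 for the 3 inhibitory receptors. The medians over all probes were 0.05, 0.02 and -0.08. These are shares of few genes, and the classes were not tested against each other as sets.

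**Figure D2:**
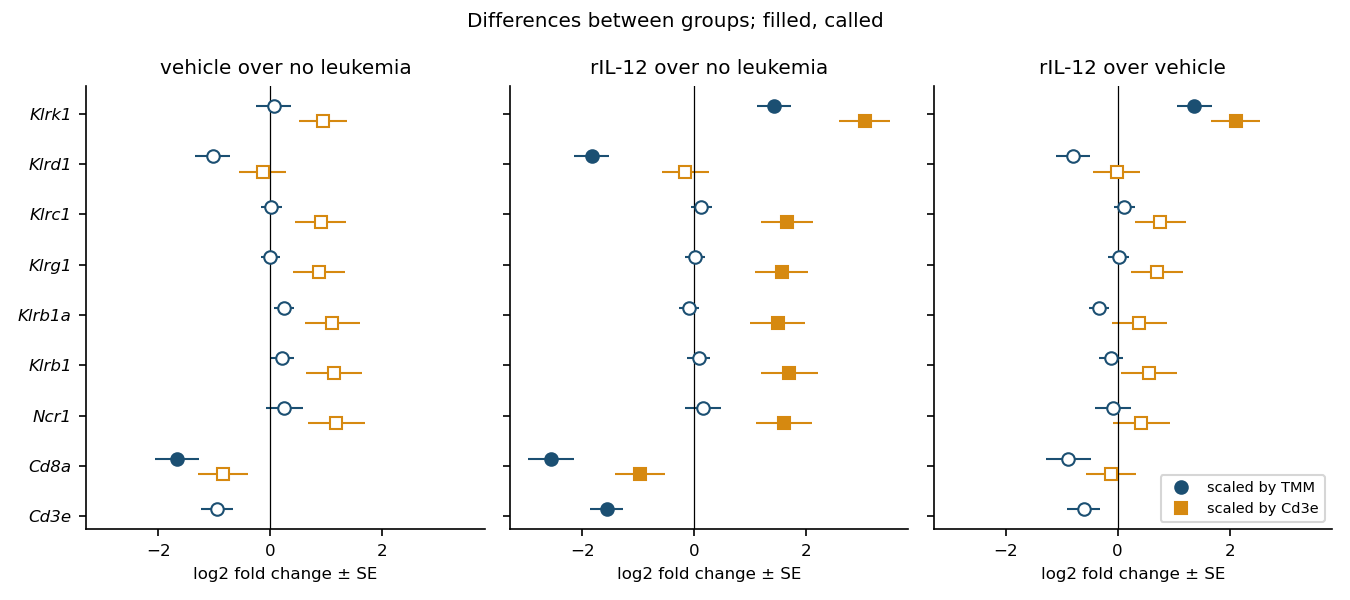
Log2 fold change ± SE (x axis) of the 7 receptors, Cd8a and Cd3e in 3 comparisons, from the edgeR fit with TMM scaling (circles) and with scaling by Cd3e (squares); filled symbols passed the adjusted p and fold thresholds. Klrk1 lies to the right in both rIL-12 comparisons under both scalings, and Klrd1 lies left of 0 under TMM and near 0 when scaled by Cd3e.

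Ratios within a mouse do not depend on how mice were scaled. The ratio of Klrk1 to Klrd1 counts was 0.243, 0.463 and 0.363 without leukemia, 0.485, 0.803 and 1.24 with vehicle, and 2.24, 7.39 and 1.60 with rIL-12. The 3 groups did not overlap, so that Klrd1 was counted more often than Klrk1 in all mice without leukemia and less often in all rIL-12 treated mice. The geometric mean was 8.66-fold higher in rIL-12 treated mice than in mice without leukemia, 3.80-fold higher than in vehicle treated mice, and 2.28-fold higher in vehicle treated mice than in mice without leukemia. Without rIL-12 treated mouse 2 the first of these folds was 5.50 and the second 2.42. Each of the 3 gave p = 0.1 in an exact two-sided permutation test, which is the smallest p that 3 mice against 3 allow.

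Activating NKG2D and inhibitory NKG2A were compared through Klrk1 and Klrc1. Their ratio was 1.46, 1.24 and 1.49 without leukemia, 1.72, 1.31 and 1.31 with vehicle, and 2.88, 5.58 and 1.81 with rIL-12. All rIL-12 treated mice were above all others. The geometric mean was 2.21-fold higher with rIL-12 than without leukemia and 2.14-fold higher than with vehicle (p = 0.1 each, exact two-sided permutation test). Between vehicle treated mice and mice without leukemia it differed 1.03-fold (p = 0.8, exact two-sided permutation test). The ratio of Klrk1 to Klrg1 gave 2.39-fold and 2.30-fold for the same rIL-12 comparisons, also without overlap. Without rIL-12 treated mouse 2 the folds were 1.65 and 1.59 for Klrk1 to Klrc1, and 1.71 and 1.65 for Klrk1 to Klrg1. Klrc1 was 1.54 to 2.51 times the viral probe and Klrg1 1.23 to 2.17 times, so background limits the size of both ratios.

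Counts of the 2 chains of the CD94/NKG2A receptor did not keep their ratio between mice without leukemia and rIL-12 treated mice. Klrc1 over Klrd1 was 0.167, 0.374 and 0.244 without leukemia, 0.282, 0.612 and 0.948 with vehicle, and 0.778, 1.32 and 0.884 with rIL-12. The rIL-12 treated mice lay above all mice without leukemia, with a 3.91-fold higher geometric mean (p = 0.1, exact two-sided permutation test), while the vehicle treated mice overlapped both groups. Of the 2 chains, Klrd1 passed the test between these groups and Klrc1 did not. As Klrc1 was 1.54 to 2.51 times the viral probe, the size of this ratio is limited by background.

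**Figure D3:**
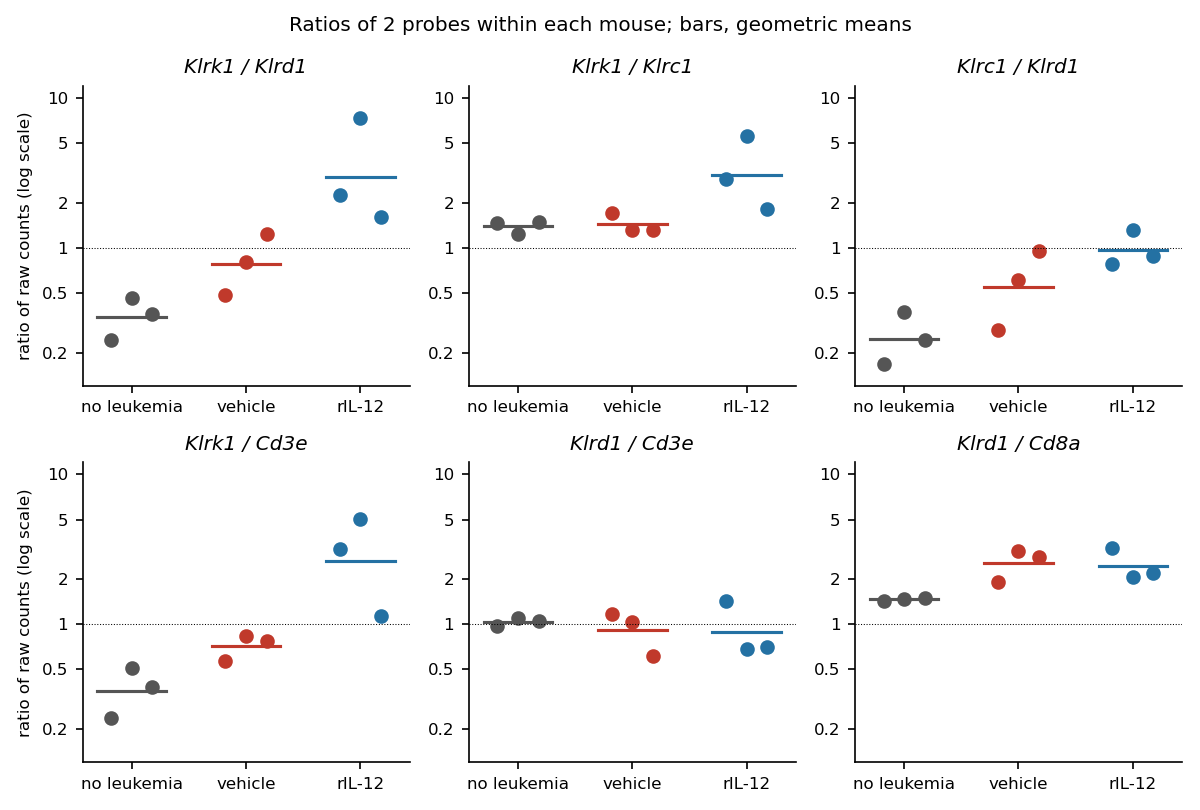
Ratios of raw counts of 2 probes within each mouse (log scale) for 6 pairs, in 3 groups of 3 mice; points are mice and bars geometric means. Klrk1 over Klrd1 separates all 3 groups, whereas Klrd1 over Cd3e overlaps between them, from 0.618 to 1.42.

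Each receptor was next set against Cd3e and Cd8a of the same mouse. Klrd1 per Cd3e was 0.976, 1.10 and 1.06 without leukemia, 1.17, 1.04 and 0.618 with vehicle, and 1.42, 0.686 and 0.710 with rIL-12. The groups overlapped, and geometric means were 1.04, 0.911 and 0.885. When the edgeR fit was scaled by Cd3e, which divides the counts of a mouse by its Cd3e count, Klrd1 differed by -0.14 (SE 0.42, adjusted p = 0.756) between vehicle treated mice and mice without leukemia and by -0.16 (SE 0.42, adjusted p = 0.719) between rIL-12 treated mice and mice without leukemia. Klrd1 per Cd8a was 1.43, 1.48 and 1.51 without leukemia, and higher in all mice with leukemia, at 1.91, 3.10 and 2.80 with vehicle and 3.23, 2.06 and 2.21 with rIL-12. Because Cd8a did not exceed the viral probe in 4 of these 6 mice, no fold is given.

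Klrk1 per Cd3e was 0.237, 0.510 and 0.384 without leukemia, 0.569, 0.838 and 0.769 with vehicle, and 3.19, 5.07 and 1.14 with rIL-12. The groups did not overlap. Scaled by Cd3e, its log2 change was 3.05 over mice without leukemia (SE 0.46, edgeR adjusted p = 2.29e-09) and 2.11 over vehicle treated mice (SE 0.44, adjusted p = 0.00015).

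These scalings move every probe, since Cd3e and Cd8a were themselves lower with leukemia. With Cd3e scaling 0, 6 and 1 of the 7 receptors passed in the 3 comparisons (vehicle over no leukemia, rIL-12 over no leukemia, rIL-12 over vehicle), beside 15.2%, 91.0% and 18.3% of all probes. With Cd8a scaling 6, 6 and 1 passed, beside 97.2%, 96.2% and 1.53%. In most mice with leukemia Cd8a did not exceed the viral probe, which limits this scaling. The median over all probes moved to 0.94, 1.61 and 0.60 with Cd3e scaling and to 2.12, 2.54 and 0.36 with Cd8a scaling. Klrc1, Klrg1, Klrb1a, Klrb1 and Ncr1, between 1.496 and 1.70 with rIL-12 over no leukemia per Cd3e, lay near that median. Klrk1 lay above it by more than its standard error, and Klrd1, which did not pass, lay below it.

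Over the 9 mice, deviations of each receptor from its group mean were related to those of Cd8a and Cd3e, on the scale of log2 of the normalized count plus 1. Of 14 pairs, 0 had an adjusted p under 0.05 in the exact permutation test of mice within groups, with Pearson's r or with Spearman's rho. With 216 arrangements the smallest p is 0.00463, which adjusted for a single pair out of 14 is 0.0648, so that no pair could have passed alone. The closest pair was Klrd1 with Cd8a, with r = 0.91 (exact two-sided permutation p = 0.0185, Benjamini-Hochberg adjusted p = 0.259) and rho = 0.90 (exact p = 0.0185, adjusted p = 0.259). Without the 2 mice farthest from the median of Cd8a, r was 0.74. Klrd1 with Cd3e had r = 0.57 (exact permutation p = 0.106, adjusted p = 0.648) and rho = 0.60 (exact p = 0.111, adjusted p = 0.605), and r = 0.76 without the 2 farthest mice. For Klrk1, r was -0.19 with Cd8a (exact permutation p = 0.597, adjusted p = 0.756) and -0.23 with Cd3e (exact p = 0.745, adjusted p = 0.803). The remaining 10 pairs had r between -0.57 and 0.42, and several moved without the 2 farthest mice. Klrc1 with Cd3e moved from -0.20 to -0.93, Klrb1 with Cd8a from -0.40 to 0.53, Ncr1 with Cd8a from -0.23 to 0.56 and Ncr1 with Cd3e from 0.42 to -0.40. In mice without leukemia and in vehicle treated mice, the order of the mice was the same for Klrd1 as for Cd8a.

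**Figure D4:**
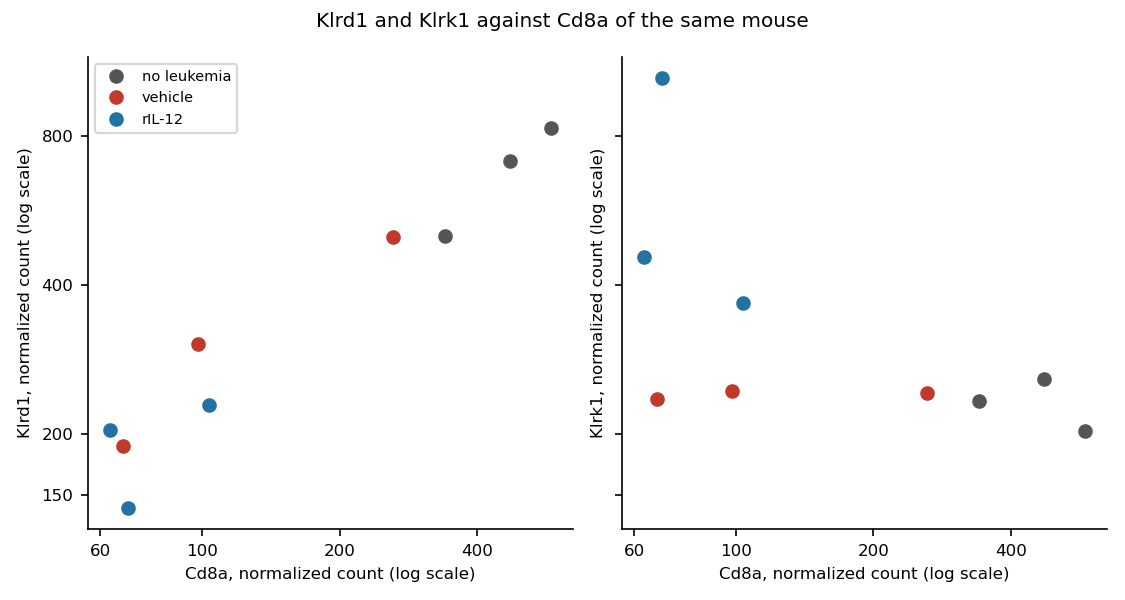
Normalized counts of Klrd1 (left) and Klrk1 (right) against Cd8a of the same mouse, on log scales; points are 9 mice, colored by group. Within the mice without leukemia and within the vehicle treated mice Klrd1 is higher where Cd8a is higher, whereas Klrk1 stays between 202 and 258 over the whole range of Cd8a in mice without rIL-12 and lies higher in the 3 rIL-12 treated mice.

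Probes with the pattern most like that of each of the 4 receptors with the highest mean count were found by Pearson's r of log2 normalized counts over the 9 mice. These values describe shared patterns over mice of 3 groups and were not tested. For Klrd1 they were Ccr7, the homing receptor of naive T-cells (r = 0.99), Cd8b1 (0.98) and Dgka (0.98), a diacylglycerol kinase, with Cd8a at rank 5 (0.97) and Cd3e at rank 35 (0.90). For Klrk1 they were H2-DMb1 (0.97), a chaperone of MHC class II loading, the glycolytic gene Pgk1 (0.96) and Bst2 (0.96), an interferon-induced antiviral protein, while Cd8a (-0.59) and Cd3e (-0.67) ranked at places 619 and 664. For Klrc1 they were the PI3-kinase adaptor gene Pik3ap1 (0.80), Ccnb3 (0.79) and Fasl (0.74), the death ligand of cytotoxic cells. For Klrg1 the values were 0.88 for Itgb8, 0.85 for Fcrlb and 0.83 for Bpi. Of these genes, Pgk1 was also among the 11 probes that set the housekeeping scaling.

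Genes that carry the signal of these receptors were measured as a list of 24, of which 19 had a probe. In rIL-12 treated mice against mice without leukemia 5 of these fell and 0 rose, where 8.66% of all probes fell and 8.92% rose, with a list median of -0.07 beside 0.02 over all probes. Between rIL-12 and vehicle treated mice 5 fell and 0 rose, where 5.22% of all probes fell and 8.54% rose, with a median of 0.01 beside -0.08, and between vehicle treated mice and mice without leukemia 0 of 19 passed. The kinases Lck (-1.60 against mice without leukemia, SE 0.23, edgeR adjusted p = 0.000681) and, against vehicle treated mice, Zap70 (-1.19, SE 0.36, adjusted p = 0.0459) were among those that fell, and both also serve the T-cell receptor. Hcst encodes DAP10, the NKG2D adaptor, and Tyrobp encodes DAP12. Like H2-M3, Ulbp1, H2-T23, Ifng and Csf1r, they were picked for their role with their values in view. Hcst had means of 447, 439 and 261 normalized counts and fell by 0.78 against mice without leukemia (SE 0.21, edgeR adjusted p = 0.0183) and by 0.76 against vehicle treated mice (SE 0.21, adjusted p = 0.0292), opposite to Klrk1. The call was lost in 4 and 7 of the 9 omissions of a mouse, with log2 changes of -0.98 to -0.68 and -0.96 to -0.66. Tyrobp had means of 5955, 7526 and 7127, and its log2 differences of 0.34, 0.26 and -0.08 (SE 0.19 each) did not pass.

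Of 20 listed ligands 7 had a probe. The list was not limited to ligands of the 7 receptors with a probe. In rIL-12 treated mice against mice without leukemia 1 ligand rose and 0 fell, where 8.92% of all probes rose and 8.66% fell. This was H2-M3, an MHC class Ib gene (0.82, SE 0.18, edgeR adjusted p = 0.00673), which did not pass with housekeeping scaling (0.44, adjusted p = 0.0931). The ligand list had medians of 0.28, 0.37 and 0.07 beside 0.05, 0.02 and -0.08 over all probes. Ulbp1, which encodes the NKG2D ligand MULT1, had means of 202, 224 and 239 normalized counts with log2 differences of 0.15, 0.24 and 0.09 (SE 0.15 each) that did not pass. H2-T23, which encodes Qa-1, the ligand of CD94/NKG2A, had means of 624, 920 and 836 and differences of 0.56, 0.42 and -0.14 (SE 0.33, 0.33 and 0.32), none of which passed.

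Of the IL-12 and IL-15 list, 4 of 10 genes had a probe. Between rIL-12 treated mice and mice without leukemia, where 17.6% of all probes passed, 1 of these 4 passed. This was Ifng, which encodes interferon gamma. Its means were 117, 153 and 308 normalized counts, and it rose by 1.39 in rIL-12 treated mice over mice without leukemia (SE 0.33, edgeR adjusted p = 0.0113), a call that was lost without mouse 1 of the latter or rIL-12 treated mouse 2, with log2 changes of 0.92 to 1.73 over all omissions of a mouse, and with housekeeping scaling (edgeR adjusted p = 0.0696). Against vehicle treated mice its log2 difference was 1.01 (SE 0.33, adjusted p = 0.0558).

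Of 21 listed genes of NK cells and cytotoxic T-cells other than these receptors, 15 had a probe. In rIL-12 treated mice against mice without leukemia 5 fell, 1 rose and 9 did not pass, against the same 8.66% and 8.92% of all probes, with a median of -0.18 beside 0.02 over all probes. Of the 15 probes, 7 exceeded the viral probe in 9 of 9 mice. Of all 15 genes, Cd96, a receptor of NK and T-cells (-1.88, SE 0.27, edgeR adjusted p = 0.000681), and Ctsw, a protease of cytotoxic cells (-1.73, SE 0.28, adjusted p = 0.000992), fell. Fcgr4, an Fc receptor gene known from monocytes, macrophages and neutrophils more than from NK cells, rose (1.64, SE 0.38, edgeR adjusted p = 0.00901). Cd96 exceeded the viral probe in 7 mice. With counts under the viral probe raised to it, the log2 change of Cd96 was -1.59 and passed (edgeR adjusted p = 0.000102). Fcgr4 exceeded the viral probe in 2 mice, both treated with rIL-12, so its size is limited by background, and with counts under the viral probe raised to it the log2 change was 0.69 and did not pass (edgeR adjusted p = 0.152). Nor did it pass without mouse 1 of the mice without leukemia, with 0.92 to 1.94 over all omissions of a mouse. Against vehicle treated mice 4 fell and 1 rose, where 5.22% of all probes fell and 8.54% rose. The list median was -0.40 beside -0.08 over all probes. Cd96 (-1.07), Tnfrsf9 (-1.04) and Ctsw (-0.90) fell, and Fcgr4 rose (1.21). With counts raised to the viral probe, Cd96 (-0.71, edgeR adjusted p = 0.0509) and Fcgr4 (0.53, adjusted p = 0.306) did not pass. In vehicle treated mice against mice without leukemia, where 1.40% of all probes fell and 1.27% rose, Cd226, an activating receptor, fell (-1.06, SE 0.23, edgeR adjusted p = 0.0296) and Tnfrsf9, which encodes the costimulatory receptor 4-1BB, rose (1.15, SE 0.27, adjusted p = 0.0415). The Cd226 call was lost with mice paired by number (edgeR adjusted p = 0.0524) and with housekeeping scaling (adjusted p = 0.0944). Tnfrsf9 exceeded the viral probe in 3 mice, and with counts raised to that probe its change was 0.65 and did not pass (edgeR adjusted p = 0.221). The summed level of the 15 genes was 3980 to 5005 normalized counts without leukemia, 3583 to 4981 with vehicle and 3331 to 5088 with rIL-12, and the lowest count of any of them in a mouse was 24.

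Of the 9 measured genes of the T-cell list 8 fell in rIL-12 treated mice against mice without leukemia and 0 rose, beside 8.66% and 8.92% of all probes, with a median of -1.28, and Cd3d, another chain of the T-cell receptor complex, fell by 1.71 (SE 0.28, edgeR adjusted p = 0.00103). Cd8b1, the partner chain of Cd8a, fell by 3.12 (SE 0.47, adjusted p = 0.000752) and, in vehicle treated mice, fell by 2.15 (SE 0.45, adjusted p = 0.0250), though not with housekeeping scaling (adjusted p = 0.0753). Cd72, a B-cell gene, fell by 1.06 from vehicle to rIL-12 treated mice (SE 0.18, edgeR adjusted p = 0.0136). Calls of list genes named here, leaving Cd68 and Itgax aside, were followed over the omissions of each of the 9 mice. Between vehicle treated mice and mice without leukemia each such call was lost in at least 1 omission. The same held between rIL-12 and vehicle treated mice. Between rIL-12 treated mice and mice without leukemia 3 of 11 were lost (Hcst, Ifng and Fcgr4). The part of these other cells in the values of Klrk1 and Klrd1 was not tested.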

How the data were processed

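T-cell RNA of 9 mice was counted by nCounter, and the authors deposited whole-number counts for 785 probes without normalization. The settings of nSolver normalization are not given in the sources used here. Probes were named through the transcript in RefSeq (GRCm38.p6), which gave 751 symbols and left 34 probes unnamed. Counts were scaled by TMM and fitted with the quasi-likelihood test of edgeR 4.0.16 in R 4.3.3, over all 9 mice in 3 groups, with a prior count of 1. A call needed a 1.5-fold change and p under 0.05 after Benjamini-Hochberg adjustment across the 785 probes. The labels do not state that mice were paired. Deviations from group means of same-numbered mice correlated over 0.1 in all 3 pairs of vehicle treated mice and mice without leukemia (0.11 to 0.26), so that a fit of the 9 mice with the number as a block is given there where it changes a call, and not in all pairs of the other comparisons. No libraries were duplicates. The test was tested on simulated data. The members, gene lists and rules were chosen with earlier results of these data known. Named genes were all receptors, Cd8a, Cd3e and, per comparison, up to 8 called list genes with the largest change. A gene that this rule names is not reported here. DESeq2 1.42.0, other scalings, a filter on a mean count of 20, the methods' t-test and leaving out each mouse were alternatives. P-values measure the spread between these mice.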

Additional observations from a re-analysis of the deposited data

How the results depend on the processing

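Counts of called receptors are given for vehicle against no leukemia (0), rIL-12 against no leukemia (2) and rIL-12 against vehicle (1). The methods' t-test called 0, 0 and 0 after Benjamini-Hochberg adjustment, and 0, 1 and 0 at the methods' unadjusted threshold. Without 1 mouse the counts were 0 to 1, 1 to 2 and 0 to 2. With only the compared groups in the model they were 1, 2 and 0, as Klrd1 passed with vehicle (-1.03) and Klrk1 no longer passed between rIL-12 and vehicle (1.46, edgeR adjusted p = 0.0513). DESeq2 called 1, 2 and 1. Housekeeping scaling called 0, 2 and 3 and total count scaling, chosen after seeing the data, 0, 2 and 2, with Klrd1 lower between rIL-12 and vehicle under both (-1.21 and -0.96) and Klrb1a under the former (-0.79). These scalings moved the median of all probes to -0.34 and -0.15 for rIL-12 against no leukemia and to -0.54 and -0.28 for rIL-12 against vehicle. Cd3e scaling called 0, 6 and 1 and Cd8a scaling 6, 6 and 1, all higher. Of all probes, 10 were called higher and 11 lower for vehicle against no leukemia, 70 and 68 for rIL-12 against no leukemia and 67 and 41 against vehicle. These were 2 and 1, 17 and 118, and 19 and 250 with housekeeping scaling, and 9 and 11, 37 and 83, and 42 and 85 with total count scaling. In a fit with the replicate number as a block the counts were 0, 2 and 1, and no receptor call changed. It lost the calls of Cd226 for vehicle against no leukemia and of Hcst, Ctsw, Fcgr4 and Zap70 for rIL-12 against vehicle (edgeR adjusted p = 0.0504 to 0.0525), and Ifng passed there (0.90, edgeR adjusted p = 0.0329). In all comparisons the mice share only a number. Correlations of deviations of same-numbered mice were -0.19 to 0.33 in the rIL-12 comparisons.

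Among receptors, the called value that changed sign was Klrd1 for rIL-12 against no leukemia, at 0.76 per Cd8a, where Cd3e also did, at 0.98, and Klrd1 for vehicle was 0.82 per Cd8a. The values that follow had not passed, and list genes are not given per Cd3e or Cd8a. For vehicle against no leukemia, Klrc1 was -0.029 with median scaling, -0.034 with the background floor and -0.029 with DESeq2. Klrg1 was 0.083 with housekeeping scaling, 0.0063 with the filter, 0.011 with the t-test, 0.024 with total count scaling, 0.87 per Cd3e and 2.09 per Cd8a, and Hcst was 0.060 with housekeeping scaling. For rIL-12 against no leukemia, housekeeping scaling gave -0.28 for Klrb1, -0.23 for Klrc1, -0.35 for Klrg1, -0.18 for Ncr1, -0.13 for Tyrobp and -0.14 for Ulbp1. Total count scaling gave -0.092, -0.049, -0.16 and -0.0060 for the first 4 of these, the background floor gave -0.022 for Klrb1 and Ncr1, and Klrb1a was 1.496 per Cd3e and 2.42 per Cd8a. For rIL-12 against vehicle, housekeeping scaling gave -0.33 for Klrc1, -0.44 for Klrg1, -0.37 for Ulbp1 and -0.11 for H2-M3, and total count scaling -0.077, -0.18 and -0.10 for the former 3. Per Cd3e and Cd8a, Klrb1 was 0.56 and 0.31, Klrb1a 0.39 and 0.14 and Ncr1 0.42 and 0.16. Without 1 mouse, for vehicle against no leukemia, Klrc1 ranged from -0.15 to 0.13, Klrg1 from -0.11 to 0.14, Klrk1 from -0.083 to 0.12, Ncr1 from -0.0068 to 0.42 and Hcst from -0.14 to 0.13. For rIL-12 against no leukemia, Klrb1 ranged from -0.021 to 0.19, Klrg1 from -0.032 to 0.16, Ncr1 from -0.13 to 0.45 and H2-T23 from -0.055 to 0.72. For rIL-12 against vehicle, Klrc1 ranged from -0.00018 to 0.21, Klrg1 from -0.073 to 0.13, Ncr1 from -0.38 to 0.20, H2-T23 from -0.62 to 0.16 and Tyrobp from -0.24 to 0.015. The cause of these changes was not tested. Klrb1a, Klrb1 and Ncr1 were counted near or under the viral probe, so the sizes of differences in them are limited by background.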
